A study of Drosophila melanogaster with 23 samples.

Results

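In the early Drosophila melanogaster embryo, 744 stretches of chromatin lay under peaks of both Zelda (Zld) and GAGA factor (GAF) but under no reproducible peak of the patterning factors Bicoid (Bcd), Caudal (Cad), Dorsal (Dl) or Twist (Twi). A stretch was counted when at least 50 bp in a row were covered by an interval in all 3 Zld lists and all 3 GAF lists. It was called patterning-poor when it shared no base with a stretch covered in all 3 lists of Bcd, of Cad, of Dl or of Twi. This is a statement about reproducible coverage, since 78 of the 744 (10.5%) overlapped 0 of the 12 single patterning-factor lists and the others overlapped 1 or more. Below, a patterning factor is counted on a stretch where all 3 of its lists cover it. The 744 patterning-poor stretches were 7.19% of the 10353 stretches covered by Zld and GAF on 6 chromosome arms (X, 2L, 2R, 3L, 3R and 4), and the other 9609 were patterning-bound. The stretches were thus chosen by the intervals of the 18 factor lists. Everything said below about the strength, width and position of factor intervals is description, whereas the histone mark lists and the gene positions were not used to choose the stretches.

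Zelda is a zinc-finger protein supplied by the mother that binds early in development and helps open chromatin before the zygotic genome is switched on. GAGA factor, the product of Trithorax-like (Trl), binds GA repeats and is known for keeping promoters open and for recruiting chromatin remodellers. Bcd and Cad set up positions from head to tail (the anteroposterior axis), and Dl and Twi from belly to back (the dorsoventral axis). The histone mark H3K27ac is found at active promoters and enhancers, and H3K4me1 is found mainly at enhancers. Both pioneer-like factors are known to bind many enhancers that the patterning factors also occupy, and the stretches described here are the sites where such joint occupancy was not seen in all 3 lists of any patterning factor.

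All samples were chromatin of whole wild-type Oregon-R embryos, 2 to 3 h after egg laying, gathered over 1 h, kept for 2 h more at 25 °C and cross-linked in 1.8% formaldehyde for 15 min. No sample carried a mutation or a treatment. Factor binding was mapped by ChIP-nexus, in which an exonuclease trims the precipitated fragment towards the bound protein, with 3 libraries for each of 6 factors. H3K27ac and H3K4me1 were mapped by ChIP-seq with 2 libraries each, and 1 sample of whole cell extract was not analysed here. Whole embryos mix nuclei from all positions, so factors found on the same stretch need not sit there in the same nuclei. The factor lists held 30281 to 60625 intervals, the H3K27ac lists 14975 and 14191, and the H3K4me1 lists 13403 and 6546. The lists hold no read counts, so read depth is unknown, and a stretch without an interval is one where no interval was listed, not one shown to be unbound. Nothing in the labels says whether the libraries of a group came from separate embryo collections. For Zld and GAF the deposited lists carry the numbers 1, 3 and 4 where the sample titles have 1, 2 and 3, and the title numbers are used here.

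The median width of these stretches was 153 bp, with the middle 50% between 120 and 190 bp and a range of 50 to 435 bp, and together they covered 119212 bp. The median width was 172, 188, 222 and 297 bp with 1, 2, 3 and 4 patterning factors, so the patterning-poor stretches were the narrow end of a graded series. Without patterning factors, it was 168 bp with Zld but not GAF and 229 bp with GAF but not Zld. Those widths are runs of a single factor rather than bases shared by Zld and GAF, so they are not a like measure. Around the width threshold, 21 patterning-poor stretches measured 40 to 49 bp and were left out, and 23 measured 50 to 59 bp and were kept. Of all 866 patterning-poor stretches of any width, 122 were under 50 bp. On the other side of the rule, 18 patterning-bound stretches shared fewer than 10 bp with a patterning-factor stretch, and 106 shared fewer than 50 bp.

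At the patterning-poor stretches the GAF intervals ranked about as high in their lists as at patterning-bound ones, while the Zld intervals ranked lower, at the low end of a graded series. Each stretch was given, for each list, the percentile of its strongest overlapping interval within that list, with 100 for the strongest. The median Zld percentile was 48.4, 54.6 and 54.8 in Zld libraries 1, 2 and 3, against 81.4, 81.9 and 82.9 at patterning-bound stretches. The median GAF percentile was 72.8, 75.9 and 73.5 in GAF libraries 1, 2 and 3, against 70.4, 75.7 and 72.5. Each Zld library thus showed the same order, and the GAF libraries differed by at most a few percentile points between the classes. The authors' fold enrichment gave the same picture, with median Zld folds of 2.89, 2.86 and 2.56 against 5.24, 4.81 and 4.05, and median GAF folds of 11.7, 10.6 and 10.2 against 11.0, 11.2 and 10.6. The Zld percentile exceeded the GAF percentile at 205 patterning-poor stretches (27.6%) and at 56.6% of patterning-bound ones. The mean percentile over the 6 lists reached 75 at 116 patterning-poor stretches (15.6%) and at 47.5% of patterning-bound ones. The median over stretches of the mean Zld percentile was 49.5 with 0 patterning factors and 57.4, 64.0, 76.9 and 90.7 with 1, 2, 3 and 4, while that of GAF stayed between 69.9 and 74.1. These values come from the lists that chose the stretches, so no test applies to them.

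**Figure D1:**
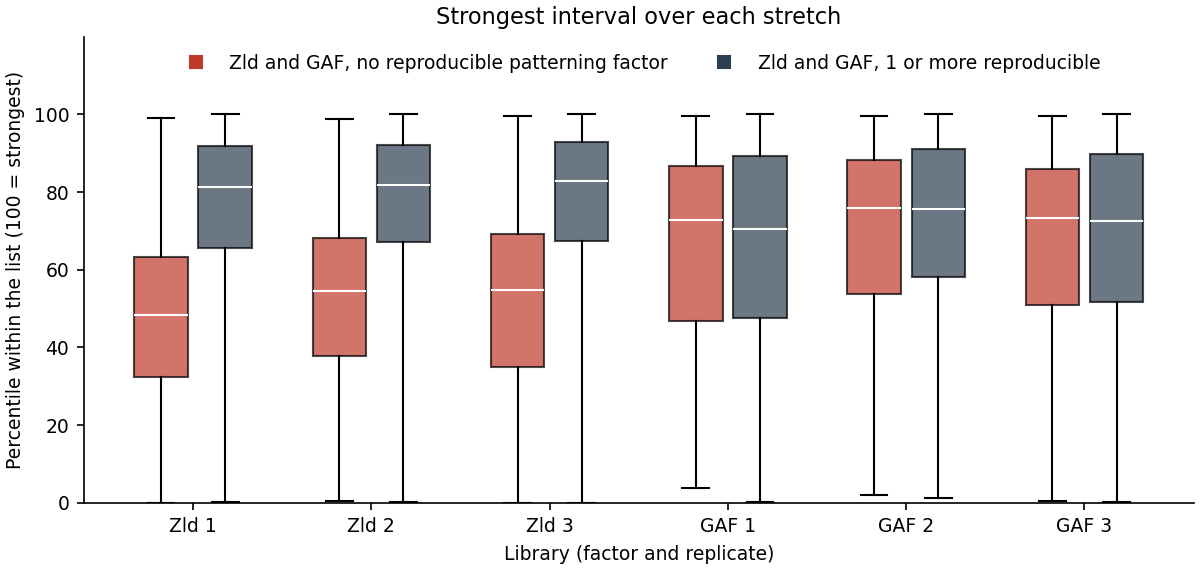
Percentile of the strongest interval over each stretch within each Zld and GAF list (vertical axis, 100 is the strongest; horizontal axis, library), for 744 patterning-poor and 9609 patterning-bound stretches. Boxes span the middle 50% with the median as a line, and whiskers reach the lowest and highest value; patterning-poor medians are 48.4 to 54.8 for Zld and 72.8 to 75.9 for GAF.

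The summits of both factors lay close together. The median distance between the median Zld summit and the median GAF summit of a stretch was 44 bp, and at 405 patterning-poor stretches (54.4%) it was at most 50 bp. At patterning-bound stretches the median distance was 52 bp. The 3 GAF summits of a patterning-poor stretch spread over a median of 26 bp, the same as at patterning-bound stretches. The 3 Zld summits spread over 60.5 bp, against 54, 48, 37 and 27 bp with 1, 2, 3 and 4 patterning factors. At 489 patterning-poor stretches (65.7%) both summits lay inside the stretch. At 155 (20.8%) the Zld summit, and at 192 (25.8%) the GAF summit, lay beyond its edges, so that those stretches are the flank of an interval with its summit elsewhere.

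The strongest patterning-poor stretches, ranked by the mean percentile over the 6 lists, illustrate the range of settings. The first was chr2R:19455726-19455930 (dm6, as all coordinates here, counted from 1), which lies 301 bp from an end of CG7744 and overlaps no protein-coding gene. Its Zld percentiles were 92.9, 94.4 and 91.6 and its GAF percentiles 94.1, 94.7 and 93.2. Both factors were strong there in every list, the stretch overlapped both H3K27ac lists and neither H3K4me1 list, and the Zld summit lay outside it. Next came chr2R:10551832-10552170, between genes and 5887 bp from an end of pipsqueak (psq), which encodes another protein that binds GA repeats. Its Zld percentiles were 85.5, 84.5 and 85.6 and its GAF percentiles 94.9, 96.6 and 97.5, and it overlapped no mark interval. The CG7744 and psq stretches each overlapped 2 of the 12 single patterning-factor lists.

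Several of the strongest stretches lay inside genes with known roles. The stretch chr3L:17972460-17972717 lies inside Eip75B, an ecdysone-induced nuclear receptor gene, 21635 bp from the nearest gene end, with Zld percentiles of 78.4, 83.1 and 88.3 and GAF percentiles of 97.1, 95.7 and 96.1. The stretch chr3R:13074652-13074947 lies inside single-minded (sim), which encodes a regulator of midline cells, and had Zld percentiles of 83.4, 87.2 and 86.1 and GAF percentiles of 91.5, 95.8 and 94.2. It overlapped both H3K4me1 lists, neither H3K27ac list and 0 of the 12 single patterning-factor lists, although sim itself is a dorsoventral gene, and the nearest patterning-factor stretch lay 2082 bp away. Others lay close to a gene end. In wech, whose product links integrins to the cytoskeleton, chr2R:7489795-7489994 lies 71 bp from a gene end, with Zld percentiles of 86.6, 89.3 and 88.8 and GAF percentiles of 91.3, 88.7 and 91.2, and it overlapped both H3K27ac lists. In pot, which encodes a zona pellucida domain protein of the cuticle, chrX:11917233-11917575 lies 144 bp from a gene end, with Zld percentiles of 88.7, 90.2 and 92.8 and GAF percentiles of 89.8, 86.3 and 85.8, and it overlapped no mark interval. The Eip75B, wech and pot stretches each overlapped 3 of the 12 single patterning-factor lists. The sites at wech and pot ranked alike in all 6 lists and differed in the mark. Their fold enrichments differed, with 2.49, 2.79 and 2.25 for Zld and 6.31, 4.62 and 5.53 for GAF at wech against 10.9, 10.2 and 9.61 and 19.4, 18.9 and 17.1 at pot.

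At the remaining sites of the top 10 every GAF percentile was above every Zld percentile. That also held at the psq, Eip75B and sim sites above, and not at CG7744, wech and pot. The stretch chr3L:14969152-14969301 lies 118 bp from an end of Tom, a Bearded-family inhibitor of Notch signalling, with GAF percentiles of 99.6, 99.7 and 99.5 and Zld percentiles of 78.4, 81.9 and 68.4. The stretch chr2R:24712803-24713121 lies inside Mid1, with GAF percentiles of 97.9, 98.3 and 98.8 and Zld percentiles of 84.4, 82.2 and 68.1, and no mark interval within 5 kb. In both, GAF was higher than Zld in every library. The same order held at chr2L:16619205-16619446 inside mtgo, with GAF percentiles of 92.0, 93.9 and 93.5 and Zld percentiles of 78.3, 81.3 and 87.0. It also held at chr2L:7530852-7531044 inside RapGAP1, a GTPase-activating protein gene, with GAF percentiles of 98.1, 97.4 and 97.2 and Zld percentiles of 69.6, 81.3 and 82.2. The RapGAP1 stretch overlapped 0 of the 12 patterning-factor lists, yet a Twi stretch lay 118 bp away. The Tom, Mid1 and mtgo stretches overlapped 1, 2 and 4 of the 12 lists.

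Single patterning-factor lists did reach most of the patterning-poor stretches. Only 78 stretches (10.5%) overlapped 0 of the 12 lists, 109 overlapped 1 list, 140 overlapped 2 and 137 overlapped 3. The highest number was 9 of 12, at the stretch chr3L:22026738-22027117 inside CG7140, which is also the fourth widest at 380 bp. At 429 stretches (57.7%), 2 lists of at least 1 patterning factor overlapped, so these stretches missed the patterning-bound class by 1 library. At 10 stretches all 3 lists of a factor overlapped but without a base shared by all 3.

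The share of patterning-poor stretches overlapped by a list differed from library to library. It was 32.0%, 26.2% and 19.8% for Bcd libraries 1, 2 and 3, and 15.7%, 29.6% and 20.8% for Cad. For Dl it was 26.7%, 19.5% and 37.0%, and for Twi 16.9%, 18.3% and 36.7%. Libraries of 1 factor differed as much as libraries of different factors, and the longest list of each of Bcd, Cad, Dl and Twi had the highest share. The part of list length in these shares was not tested.

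**Figure D2:**
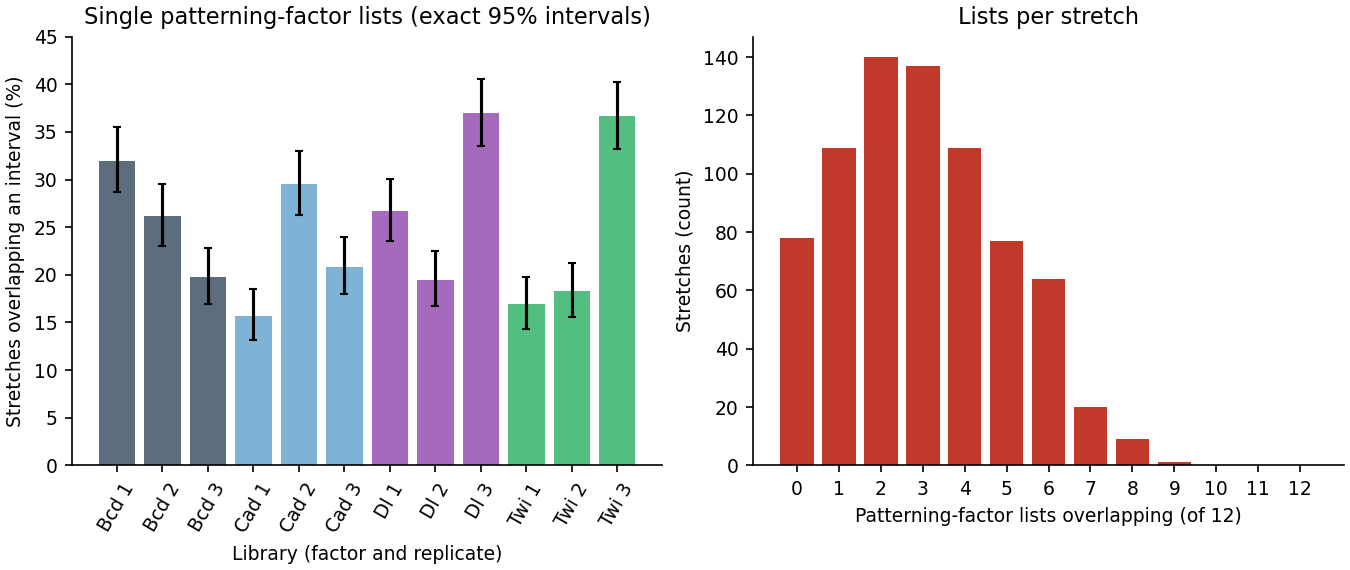
Left, share of the 744 patterning-poor stretches (%) that overlap an interval of each single Bcd, Cad, Dl and Twi list, with exact 95% intervals. Right, number of stretches (count) by how many of the 12 lists they overlap; 78 overlap 0 lists, and the highest number is 9 lists.

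Most patterning-poor stretches had a patterning-factor stretch nearby. The median gap to the nearest one was 507 bp, 109 stretches had one within 100 bp, 364 (48.9%) within 500 bp and 537 (72.2%) within 1 kb. For 740 of 744 it lay within 5 kb. Twi was the nearest factor at 277 stretches, Bcd at 218, Cad at 198 and Dl at 51. The arms held 35570 Twi, 31776 Bcd, 31872 Cad and 15685 Dl stretches of 50 bp or more. Gaps from other positions on the arms were not measured. The closeness and the order of the factors are thus not shown to be particular to patterning-poor stretches. The stretch at nullo, described below, was 8 bp from a Cad stretch.

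H3K27ac overlapped few of the patterning-poor stretches. An H3K27ac region was a run of bases, of any width, covered in both H3K27ac lists. Of 744 patterning-poor stretches 89 overlapped one, which is 11.96% with an exact (Clopper-Pearson) 95% interval of 9.72% to 14.5%. Over all 10353 Zld and GAF stretches the share was 36.5%, and such regions covered 7.81% of the base pairs of the arms. At patterning-bound stretches the share was 38.4% (37.4% to 39.4%). Each mark library gave the same order, with 13.2% of patterning-poor against 41.3% of patterning-bound stretches in H3K27ac library 1 and 13.8% against 40.4% in library 2. The difference of 26.4 percentage points was far larger than the difference between the mark libraries. Among stretches without a patterning factor, the share was 9.41% (8.63% to 10.2%, n = 5218) with Zld but not GAF and 7.69% (7.06% to 8.37%, n = 6524) with GAF but not Zld. The interval of the GAF stretches lay below that of the patterning-poor Zld and GAF stretches. Intervals on shares cover counting error only. Stretches of 1 set of libraries are not replicates and there are 2 libraries per mark, so no p-value is given for any of these differences. With lists limited to their 5000 strongest intervals, 139 patterning-poor stretches were found, 54.7% of them in H3K27ac, and the difference was 4.45 percentage points in the same direction.

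H3K27ac overlap was higher the more patterning factors covered a Zld and GAF stretch. It was 11.96% with 0 patterning factors, 16.2% with 1, 20.9% with 2, 31.4% with 3 and 53.7% with all 4, on 744, 1313, 1665, 1938 and 4693 stretches. The patterning-poor stretches thus formed the low end of a graded series, and the interval of 9.72% to 14.5% reached that of the stretches with 1 factor (14.3% to 18.3%).

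**Figure D3:**
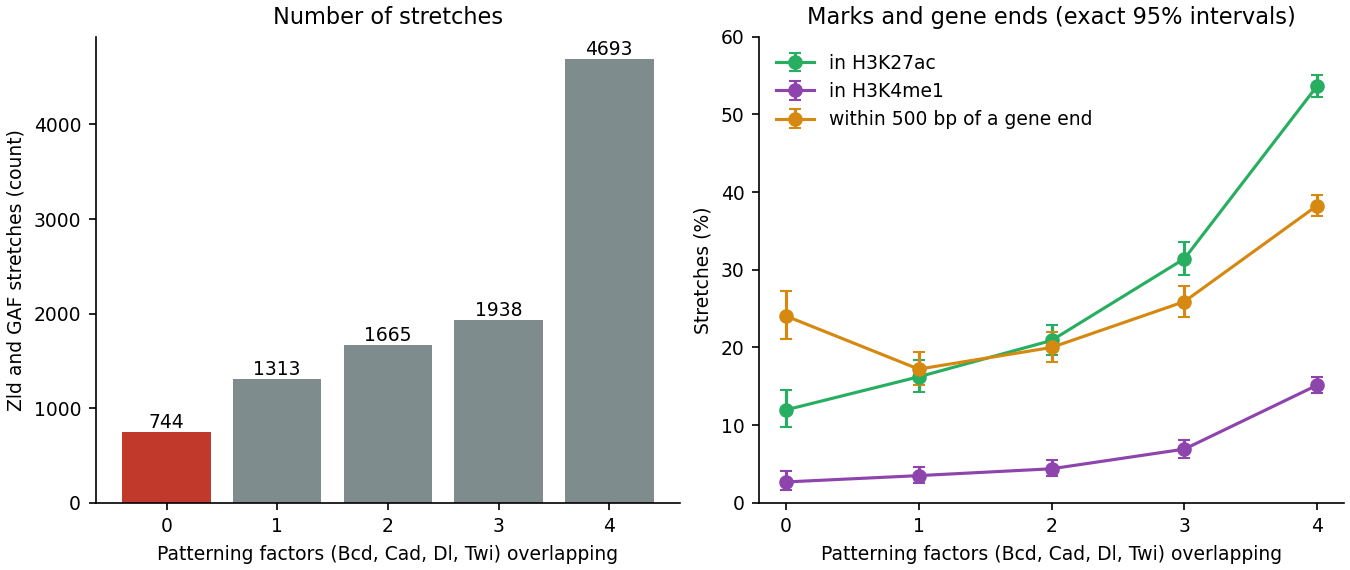
Left, number of Zld and GAF stretches (count) by the number of patterning factors that overlap them, with the 744 patterning-poor stretches at 0. Right, share (%) of those stretches in H3K27ac regions, in H3K4me1 regions and within 500 bp of a protein-coding gene end, with exact 95% intervals; the H3K27ac share goes from 11.96% at 0 factors to 53.7% at 4, while the gene end share is 24.1% at 0 factors and 17.2% at 1.

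Strength, gene ends and distance to patterning-factor stretches moved with the H3K27ac share, and their part in the difference between the classes was not tested. When all Zld and GAF stretches were divided into 4 equal classes by mean percentile over the 6 lists, the patterning-poor stretches numbered 400, 204, 107 and 33 from weakest to strongest. Their H3K27ac shares were 8.50%, 12.7%, 18.7% and 27.3%, and those of patterning-bound stretches in the same classes were 21.0%, 34.6%, 40.8% and 54.4%. In each strength class the patterning-poor share was thus the lower one. Width did not move the same way. In 3 width classes the H3K27ac share of patterning-poor stretches was 13.8%, 11.9% and 10.1% from narrow to wide, against 28.9%, 31.5% and 41.4% at patterning-bound stretches. Patterning-poor stretches with a patterning-factor stretch within 500 bp were in H3K27ac in 19.2% of cases (70 of 364, 15.3% to 23.7%), and those farther away in 5.0% (19 of 380, 3.04% to 7.70%). The 78 stretches overlapping 0 of the 12 patterning lists were in H3K27ac in 7.69% of cases (2.88% to 16.0%), those overlapping 1 or 2 lists in 16.5% and those overlapping 3 or more in 10.1%. The 489 stretches with both summits inside had 8.38%, and the 155 with the Zld summit outside had 23.9%.

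Around the midpoints the H3K27ac coverage of patterning-poor stretches fell slowly with distance. At the midpoint 9.68% lay inside an H3K27ac region, the highest value was 10.1% at 100 bp to either side, and the values were 8.68% at 500 bp, 6.32% at 2 kb and 6.86% at 5 kb, with the lowest value of 5.78% at 3350 bp. Patterning-bound stretches had 25.0% at the midpoint, a highest value of 32.8% at 300 bp and 10.3% at 5 kb. The patterning-bound stretches thus showed a dip at the midpoint between higher flanks. Of the 744 patterning-poor stretches, 72 were covered at the midpoint and 76 and 75 at 100 bp to each side. These counts are too close to tell whether a shallow dip was present there.

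**Figure D4:**
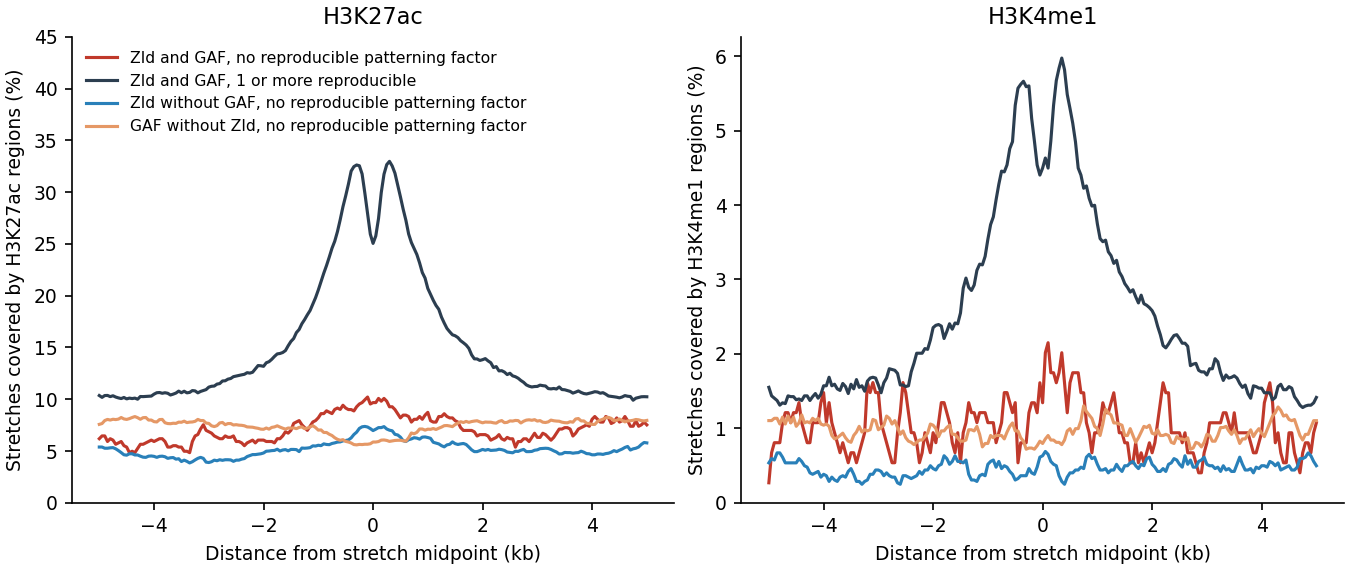
Share of stretches (%) covered by H3K27ac regions (left) and H3K4me1 regions (right) by distance from the stretch midpoint (kb), for patterning-poor Zld and GAF stretches, patterning-bound stretches, and stretches of Zld without GAF or GAF without Zld that have no patterning factor. The patterning-poor H3K27ac curve goes from 9.68% at the midpoint to 6.32% at 2 kb, and the patterning-bound curve reaches 32.8% at 300 bp.

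H3K4me1 regions, defined in the same way, overlapped 20 of 744 patterning-poor stretches, which is 2.69% (1.65% to 4.12%). Over all Zld and GAF stretches the share was 9.5%, at patterning-bound stretches 10.03%, and the regions covered 1.03% of the arm base pairs. The like measure to base pairs, the midpoint, lay in a region at 1.34% of patterning-poor stretches (0.646% to 2.46%, an interval that includes 1.03%). The level of overlap depended on the library. H3K4me1 library 1, with 13403 intervals, overlapped 8.74% of patterning-poor and 30.8% of patterning-bound stretches, and library 2, with 6546 intervals, 3.23% and 13.3%. The patterning-poor share was lower in both libraries, but its value was 8.74% without library 2. With 1, 2, 3 and 4 patterning factors the share was 3.50%, 4.38%, 6.91% and 15.2%. Stretches of Zld without GAF and of GAF without Zld, both without patterning factors, had 1.09% and 1.53%.

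Most patterning-poor stretches carried neither mark. In total 647 of 744 (87.0%) overlapped neither mark's regions, 77 overlapped H3K27ac regions alone, 8 overlapped H3K4me1 regions alone and 12 overlapped both. Counting any interval of any of the 4 mark lists, 607 (81.6%) had none on the stretch and 384 (51.6%) had none within 5 kb. That last share was 26.8% at patterning-bound stretches, 57.1% at stretches with Zld but not GAF and 46.5% at those with GAF but not Zld.

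The strongest stretch with no mark interval within 5 kb was the one inside Mid1. The next was chrX:15306326-15306579 inside gce, a gene for a juvenile hormone receptor, with Zld percentiles of 79.4, 74.2 and 87.3 and GAF percentiles of 95.4, 92.6 and 93.6. The stretch chrX:15075107-15075259 inside Lsd-2, which encodes a lipid droplet protein, had Zld percentiles of 81.8, 87.1 and 92.5 and GAF percentiles of 89.6, 84.0 and 86.4, and overlapped 0 of the 12 patterning lists. These unmarked sites had both factors above the median of all listed intervals in all 6 lists. The stretches chrX:12547822-12548064, inside hwt, and chrX:15043601-15043879, inside hiw (highwire, a ubiquitin ligase gene) and 383 bp from an end of CG5541, followed with mean percentiles of 86.8 and 86.3. The gce and hwt stretches each overlapped 6 of the 12 patterning lists, and the hiw stretch overlapped 2.

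The 12 stretches that overlapped all 4 mark lists were scattered, and 3 of them lay within 500 bp of a gene end. The strongest was chr2R:22686263-22686407 inside Ppa, an F-box protein gene, with Zld percentiles of 88.0, 92.3 and 94.2 and GAF percentiles of 87.5, 77.2 and 84.8. It overlapped 0 of the 12 patterning lists. The stretch chr2R:11633480-11633752 inside atos had Zld percentiles of 77.4, 82.3 and 86.4 and GAF percentiles of 91.1, 92.7 and 93.2, and a Twi stretch lay 28 bp away. At chr3R:10599579-10599783, inside the homeobox gene homothorax (hth), the Zld lists disagreed more, with percentiles of 96.5, 68.8 and 81.1, while GAF had 77.5, 83.2 and 81.4. The others named by the rule were chr3R:17706860-17707183 inside osa, which encodes a subunit of the Brahma remodelling complex, and chrX:6867222-6867380 inside CG43736, with mean percentiles of 75.2 and 75.4. Of the 12 patterning lists, 6 overlapped the atos stretch, 2 the hth stretch and 3 each the osa and CG43736 stretches.

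Pooled over all strengths, the patterning-poor stretches lay near gene ends somewhat less often than patterning-bound ones, and the difference was not seen in the weakest strength class. A midpoint at most 500 bp from the nearest end of a protein-coding gene was found at 179 of 744, which is 24.1% (21.0% to 27.3%), against 29.3% of all Zld and GAF stretches and 15% of arm base pairs. The share was 29.7% at patterning-bound stretches, 17.5% at stretches with Zld but not GAF and 19.3% at those with GAF but not Zld. From the weakest to the strongest of the 4 strength classes, the share was 21.8%, 25.5%, 28.0% and 30.3% at patterning-poor stretches and 20.8%, 29.7%, 30.6% and 36.6% at patterning-bound ones. The weakest class holds 400 of the 744 stretches, and the intervals of the patterning-poor shares in all 4 classes included the patterning-bound value. The number of patterning factors gave no graded series, since the share was 17.2%, 20.0%, 25.9% and 38.3% with 1, 2, 3 and 4 factors, and stretches with 0 factors stood above those with 1. With the 5000 strongest intervals of each list, 48.9% of patterning-poor stretches lay near a gene end and the order turned, to 6.89 percentage points above patterning-bound ones. The gene table gives no strand, so the ends hold starts and stops of transcription alike.

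The median distance from a patterning-poor midpoint to the nearest gene end was 3792 bp, with the middle 50% between 545 and 11598 bp, and 214 stretches (28.8%) were more than 10 kb away. The median was 2485 bp at patterning-bound stretches. In all, 508 patterning-poor stretches (68.3%) lay inside the span of a protein-coding gene, and exons, introns and untranslated regions were not analysed here. Patterning-poor stretches near a gene end were in H3K27ac in 23.5% of cases (42 of 179, 17.5% to 30.4%) and the others in 8.32% (47 of 565, 6.18% to 10.9%). At patterning-bound stretches these shares were 63.4% and 27.8%. The lower H3K27ac share of the patterning-poor stretches was thus seen on both sides of the 500 bp boundary when all strengths were pooled. Within the strongest of the 4 strength classes, the shares near a gene end were alike. They were 60.0% (6 of 10, 26.2% to 87.8%) at patterning-poor and 61.0% at patterning-bound stretches. In every other combination of strength class and side the patterning-poor share was lower. Patterning-poor stretches in H3K27ac had a median distance to a gene end of 540 bp, and those outside it 4839 bp.

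**Figure D5:**
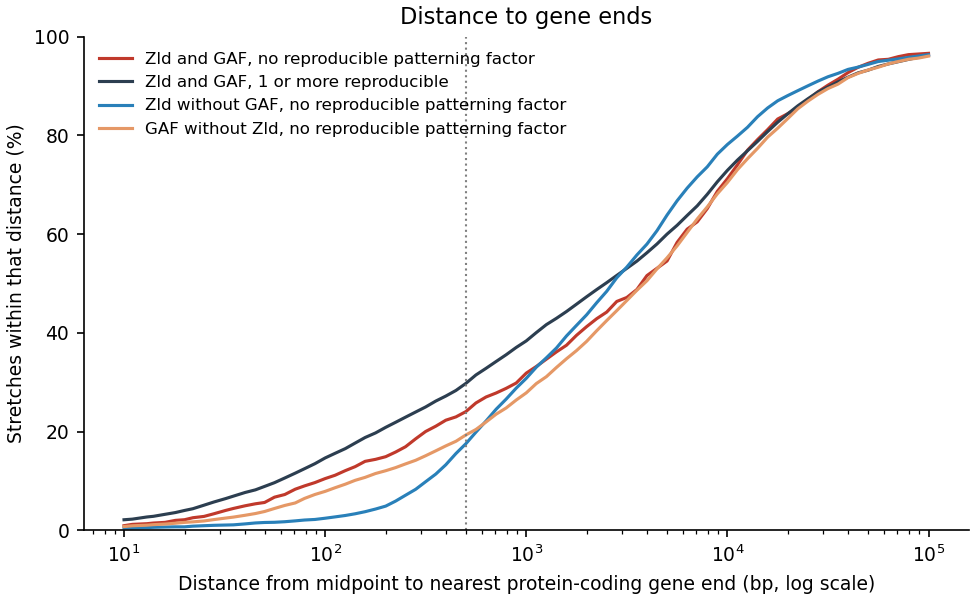
Share of stretches (%) with a midpoint within a given distance (bp, log scale) of the nearest protein-coding gene end, for patterning-poor and patterning-bound Zld and GAF stretches and for stretches of Zld without GAF or GAF without Zld that have no patterning factor. The dotted line marks 500 bp, where the patterning-poor curve is at 24.1% and the patterning-bound curve at 29.7%.

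Of 13911 protein-coding genes, 215 (1.55%) had a patterning-poor stretch within 500 bp of an end, and 3514 (25.3%) had a patterning-bound one. Only 3 genes had 2 or more patterning-poor stretches at their ends. Within 5 kb or inside the gene, 1092 genes (7.85%) had 1 or more. At anteroposterior and dorsoventral genes the patterning-poor counts were near these shares. Patterning-bound stretches at their ends were more frequent than over all genes. Of 39 anteroposterior genes 0 had a patterning-poor stretch at an end and 30 (76.9%) had a patterning-bound one. Of 45 dorsoventral genes 0 and 30 (66.7%) did, against 25.3% of all genes with a patterning-bound one. Within 5 kb, patterning-poor stretches were found at 2 anteroposterior genes, hedgehog (hh) and cnc, and at 4 dorsoventral genes, esg, twi, sim and vnd, which is 5.13% and 8.89% of the lists against 7.85% of all genes. Of the 8 Hox genes 0 had one at an end, and lab and Antp had one within 5 kb (25.0%, against 7.85% of all genes). The median length of the Hox genes was 30563 bp against 2161 bp for all genes.

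Other gene groups were counted in the same way. No end with a patterning-poor stretch was found among 25 cell cycle genes, 20 heat shock genes, 33 Polycomb and trithorax group genes, 20 genes for insulator and GA-repeat binding proteins, 21 ecdysone response genes or 92 ribosomal protein genes. In the same order, 11, 9, 17, 8, 10 and 41 of these genes had a patterning-bound stretch at an end. With a background of 1.55% for patterning-poor stretches at ends, few would be counted in lists of this length, so a 0 here says little. Within 5 kb, 7 of 21 ecdysone response genes had a patterning-poor stretch, against 7.85% of all genes. They were chinmo, EcR, Hr3, Eip75B, ftz-f1, br and Hr4, and the median length of the listed genes was 31127 bp against 2161 bp for all genes, so that more base pairs were searched per gene. Of the 20 insulator and GA-repeat genes, 4 (20.0%, against 7.85% of all genes) had one within 5 kb. They were Clamp, psq, bab1 and Trl, the gene of GAF itself. Among the cell cycle genes it was ago (4.0%), among the heat shock genes Hsp83 (5.0%), and among the Polycomb and trithorax group genes osa (3.03%). Of 92 ribosomal protein genes, RpL19, RpS10a and RpS5a had one within 5 kb (3.26%).

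Of 23 cellularization genes, 1 (4.35%, against 1.55% of all genes) had a patterning-poor stretch at an end. A patterning-bound one was found at an end of 10 (43.5%, against 25.3% of all genes). The gene with the patterning-poor stretch was nullo, which is switched on in the blastoderm embryo and is needed to form the first cells. The stretch chrX:7049557-7049847 had the highest Zld percentiles of any patterning-poor stretch named here, 99.1, 98.8 and 99.5, beside GAF percentiles of 59.7, 50.0 and 52.2. The Zld and GAF summits were 404 bp apart with the Zld summit outside the stretch, and the stretch overlapped H3K27ac library 2 but not library 1. It is therefore the flank of a strong Zld interval with a moderate GAF interval across it. Of the 12 patterning lists, 2 overlapped the nullo stretch, both of Dl. Within 5 kb, the cellularization and polarity genes Nin, crb and sdt also had one, which makes 4 of 23 genes (17.4%) against 7.85% of all genes. The listed genes had a median length of 3403 bp.

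Of 49 listed genes that select tissues later in development, 2 (4.08%, against 1.55% of all genes) had a patterning-poor stretch at an end. A patterning-bound one was found at an end of 35 (71.4%, against 25.3% of all genes). At scalloped (sd), a TEAD-family factor gene, chrX:15804219-15804382 lies 70 bp from a gene end, with GAF percentiles of 99.2, 98.9 and 98.7 and Zld percentiles of 40.8, 68.7 and 21.2. At bagpipe (bap), a homeobox gene of the visceral mesoderm, chr3R:21388757-21388865 lies 69 bp from a gene end, with GAF percentiles of 73.1, 74.6 and 75.2 and Zld percentiles of 15.7, 62.5 and 70.0. GAF was steady between libraries at both and Zld was not. Of the 12 patterning lists, 3 overlapped the sd stretch and 1 the bap stretch. The bap stretch overlapped both H3K4me1 lists and neither H3K27ac list, and the sd stretch overlapped no mark interval. Within 5 kb the list gave 10 of 49 genes (20.4%) against 7.85% of all genes, with hth at 3 stretches. The median length of the listed genes was 15523 bp against 2161 bp for all genes.

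A few genes, most of them long, had several patterning-poor stretches inside or within 5 kb. Myo81F, an unconventional myosin gene in the pericentromeric part of 3R, held 14 over its 1965857 bp. The strongest of them by GAF was chr3R:1247523-1247672, with GAF percentiles of 95.9, 97.8 and 95.9, GAF folds of 60.9, 60.7 and 56.0, and Zld percentiles of 47.6, 67.6 and 15.7. Hyperkinetic (Hk), which encodes a subunit of a potassium channel, held 6 within 30139 bp, more per length than Myo81F, and none of the 6 overlapped a mark interval or had one within 5 kb. Their mean percentiles ran from 48.9, at chrX:10255401-10255550, to 69.6, at chrX:10261362-10261434. The genes CG42784, Muc11A (5350 bp long), Ten-a and lovit had 4 each, of which 3 lay inside CG42784. The Muc11A stretches lay inside Ten-a, a teneurin gene, as well. One of these, chrX:12062700-12063134, was the widest patterning-poor stretch at 435 bp, yet its percentiles were moderate, 70.0, 62.2 and 59.8 for Zld and 30.2, 26.97 and 48.6 for GAF. Of all 744 stretches, 58 had another within 5 kb. Neighbouring stretches can lie under the same interval, as chrX:12062109-12062402 and chrX:12062700-12063134 did in Zld library 1. The counts per gene are therefore not counts of separate binding sites.

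Patterning-poor stretches made up more of the Zld and GAF stretches on X than on the other arms together. The X chromosome held 185 of them, which is 24.9% (21.8% to 28.1%), against 19.0% of patterning-bound stretches, 17.1% of stretches with Zld but not GAF and 17.6% of those with GAF but not Zld. Of the Zld and GAF stretches on X, 9.20% (7.98% to 10.6%) were patterning-poor, and of those on all other arms together 6.70% (6.17% to 7.26%). On chromosome 4 it was 10.9% (13 of 119, 5.95% to 17.96%), and on 2L, 2R, 3L and 3R 5.67%, 6.90%, 6.85% and 6.96%. The interval of chromosome 4 included the shares on 2R, 3L and 3R. The other arms had 101 on 2L, 134 on 2R, 145 on 3L, 166 on 3R and 13 on 4. On X the H3K27ac share of patterning-poor stretches was 9.73%, and on the other arms it ran from 9.66% on 3L to 23.1% on 4, where it stands for 3 of 13 stretches. The comparison by chromosome was added after the data were seen.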

How the data were processed

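Binding of 6 factors (3 ChIP-nexus libraries each) and 2 histone marks (2 ChIP-seq libraries each) was analysed from the 22 peak lists the authors deposited, 1 per library. The submitters' processing notes name cutadapt 2.5, Bowtie2 2.3.5.1, MACS2 2.2.7.1 and the build dm6, and whether a control library was used is not given in the sources used here. The deposited lists give a whole-number score (10 times the −log10 q, rounded down, on 99.0% to 100% of lines), a fold enrichment (a linear ratio), the −log10 of the p-value and q-value, and a summit position. These are the authors' values and were used to rank or filter intervals within a list. The lowest deposited −log10 q was 1.30 to 1.72 in the lists, and no list held the same interval again.

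Stretches were built from all intervals on the 6 arms. An overlap was 1 bp or more. Percentiles rank a list by −log10 q, with ties by fold. Gene symbols and ends came from the RefSeq table of Drosophila Release 6, the assembly of dm6. Shares carry exact 95% binomial intervals. Python 3.11.15, numpy 2.4.6, pandas 2.3.3, scipy 1.17.1 and matplotlib 3.10.9 were used, and the construction was tested on simulated lists. Members and gene lists were chosen with earlier results of these data known. Stretches were named by rule: the 10 highest mean percentiles, the 5 widest, the 5 strongest with all 4 mark lists and with no mark interval within 5 kb, those at ends of listed genes, and genes with most stretches; other names were chosen after their values were seen. Alternatives are given in the closing section. No sequence was used.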

Additional observations from a re-analysis of the deposited data

How the results depend on the processing

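Differences are patterning-poor minus patterning-bound, in percentage points, and were −26.4 for H3K27ac, −7.34 for H3K4me1 and −5.67 for gene ends. Of 91 such differences under alternatives, 90 were negative. With 1 library left out at a time, 659 to 1007 stretches were found, with H3K27ac shares of 10.9% to 13.8%, H3K4me1 shares of 2.32% to 8.74%, gene end shares of 22.2% to 25.7% and X shares of 22.4% to 26.1%. The differences then ran from −28.1 to −25.4 for H3K27ac, from −22.0 to −6.91 for H3K4me1 and from −7.24 to −3.85 for gene ends. The H3K4me1 difference was −10.0 without H3K4me1 replicate 1 and −22.0 without replicate 2.

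Keeping the 5000 strongest intervals of each list gave 139 patterning-poor stretches, of which 54.7% were in H3K27ac, 11.5% in H3K4me1 and 48.9% near a gene end. The differences were then −4.45 for H3K27ac, −17.8 for H3K4me1 and 6.89 for gene ends, so that the last one turned, and the cause was not tested. This choice also shortens the patterning-factor lists, so that stretches with weaker patterning-factor intervals enter. A −log10 q of at least 10 gave differences of −33.3 for H3K27ac and −10.2 for H3K4me1. Letting any of the 12 patterning lists remove a stretch left 78, with 7.69% in H3K27ac, 5.13% in H3K4me1 and differences of −29.0 and −4.41. Coverage in 2 of 3 lists gave 8.85% in H3K27ac and 20.7% near a gene end. Stretches with both summits inside, a choice made after the data were seen, numbered 489, with 8.38% in H3K27ac and 20.7% near a gene end. An interval of either mark list gave 15.1% in H3K27ac and 9.27% in H3K4me1, with a difference of −24.6 for H3K4me1. Midpoints inside the mark gave 9.68% and 1.34%, with differences of −15.4 and −3.15, and the mark within 500 bp gave 17.2% and 4.97%, with differences of −29.1 and −14.0. The gene end share was 14.9% within 200 bp and 31.9% within 1000 bp. Gene starts alone, in place of both ends, and motif counts had been intended and were not run, since the table used has no strand and no sequence was used. The X share ran from 21.0% with 2 of 3 lists to 30.8% with any of the 12 patterning lists removing a stretch. No paired analysis was possible because the results come from no test.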

Other observations

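Patterning-poor stretches lay at the ends of several genes of nerve cells, which are not yet formed at this age. After these names had been seen, 3 lists were written, so that their counts carry no test and are not independent of what was noticed. In a list of 29 genes for the presynaptic active zone, synaptic adhesion and receptors, 8 had a patterning-poor stretch within 500 bp of an end and 8 a patterning-bound one, where 1.55% and 25.3% of all genes did. The 8 were brp and Rim, which encode active zone scaffolds, Nlg3, a neuroligin gene, Nmdar1 and nAChRalpha3, which encode glutamate and acetylcholine receptor subunits, and the amine receptor genes Oct-TyrR, Dop1R2 and Dop2R. Among 32 genes of the dpr and DIP family, cell surface proteins that mark neurons for their partners, 5 had a patterning-poor stretch at an end (DIP-delta, DIP-eta, DIP-lambda, dpr7 and dpr12) and 10 a patterning-bound one. Among 18 genes of voltage-gated and related channels it was Shab alone at an end (5.56%), and 7 (38.9%) within 5 kb. Of all genes, 1.55% had one at an end and 7.85% within 5 kb. The median gene length was 31757 bp, 32526 bp and 47802 bp in the 3 lists against 2161 bp for all genes. More base pairs are searched in the count within 5 kb when a gene is long. The part of gene length in either count was not tested.

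At Nlg3, chr3R:7639419-7639633 lies 92 bp from a gene end, with Zld percentiles of 65.9, 62.7 and 74.5 and GAF percentiles of 87.7, 83.8 and 81.8, and overlapped both H3K27ac lists. At Oct-TyrR, chr3L:22034803-22035073 lies 65 bp from a gene end, with Zld percentiles of 76.4, 73.9 and 76.9 and GAF percentiles of 77.0, 75 and 71.8, and had no mark interval within 5 kb. At brp, chr2R:9503771-9503871 lies 56 bp from a gene end, with GAF percentiles of 79.1, 77.0 and 70.9 and Zld percentiles of 47.3, 53.4 and 21.2. At Rim, chr3R:17916639-17916819 lies 151 bp from a gene end, with GAF percentiles of 83.6, 87.4 and 84.4 and Zld percentiles of 11.0, 25.5 and 64.3. The GAF values were close between libraries at these 4 sites, and Zld was as close at Oct-TyrR but not at Rim. Of the 8 stretches, the one at Nlg3 was in H3K27ac. The Rim stretch overlapped all 3 Bcd lists, without a base shared by the 3, and 6 of the 12 patterning lists. The Nlg3 and Oct-TyrR stretches overlapped 4 and 2 of the 12.

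Among the 744 stretches, 18 (2.42%) lay within 500 bp of an end of one of 1959 lncRNA genes, against 3.48% of patterning-bound stretches, 1.57% of stretches with Zld but not GAF and 3.02% of those with GAF but not Zld. Antisense RNA genes (503 in the table) gave 8 stretches, snoRNA genes 2, and tRNA, miRNA and pseudogenes 1 each.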
